A study of Mus musculus with 2 samples.

Results

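The genes described here are 54 genes of the cell cycle and mitosis, chosen by name and read from the arrays through the probes that carry those names, out of 30193 gene names on the array. They comprise 14 genes of DNA replication and S phase, 14 cyclins, cyclin-dependent kinases (CDKs) and CDC25 phosphatases, 16 genes of mitosis, 5 transcription factors of the E2F and MYC families and 5 CDK inhibitors. Total RNA was taken from the skin of newborn mice on postnatal day 0, pooled in equal amounts from 6 animals per genotype, and hybridized with Cy3 to 1 Agilent mouse array for *Pnpla1*+/+ (wild type) and 1 for *Pnpla1*-/- (knockout) mice, both on a C57BL/6N background. The null allele came from a 'knockout-first' allele, *Pnpla1*tm1a(KOMP)Wtsi, whose *IRES-LacZ* and *Neo* cassettes had been removed, and littermates served as wild type. The labels name the tissue skin while the deposited design text speaks of epidermis, and the dermal collagen gene *Col1a1* and the epidermal keratin gene *Krt5* were both far above background on both arrays. With 1 array per genotype there is no replicate and no test between genotypes, and each value describes these 2 pools.

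Dividing cells copy their DNA in S phase and separate it in mitosis. Cyclins switch on the CDKs that drive each step, E2F factors turn on the genes for replication, and CDK inhibitors of the Cip/Kip and Ink4 families hold the kinases back. In skin epithelium, most division takes place in the basal layer and the hair follicle matrix, and keratinocytes leave the cycle as they move upwards and differentiate.

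Levels are given as scaled intensity, the processed intensity of a gene's brightest probe divided by the 75th percentile of its array, which was 2108 for *Pnpla1*+/+ and 1734 for *Pnpla1*-/- skin. A difference is the log2 of the *Pnpla1*-/- level over the *Pnpla1*+/+ level, so that a negative value means a lower level in the knockout pool. Repeated spots of 314 probes gave a technical SD of 0.08 for a difference, which leaves out the variation between mice. Of the 54 genes, 53 were well above background on both arrays. The exception was *Ccne2*, a cyclin of the entry into S phase, at 0.00903 in *Pnpla1*+/+ and 0.00521 in *Pnpla1*-/- skin, which has no difference here. *Pnpla1* itself, read by a probe at chr17:29026908-29026967 of mm9, had a log2 difference of −2.07, or 23.9% of the wild-type level. Whether that probe lies within the removed part of the gene is not given in the sources used here.

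Most cell cycle genes were lower in *Pnpla1*-/- skin, and by a moderate amount. Of the 53 measured genes, 48 had a difference below 0, against 49.8% of all 22408 genes with a difference. The median over the 53 genes was −0.55, or 68.5% of the wild-type level, while the median over all genes was 0.00. At a threshold of 1.5-fold, 21 genes were lower and none was higher, against 9.34% of all genes lower and 13.8% higher. At 2-fold, 2 genes were lower, *Ccnd1* and *Ccnd2*, and none was higher, against 3.04% and 6.69% of all genes. The genes thus share a direction more than a large size. Levels between 50% and 80% of wild type were found for 36 of the 53, against 17.2% of all genes. A difference below −0.16, which is 2 times the technical SD, was found for 46, against 33% of all genes. In pooled skin RNA, fewer dividing cells and less RNA per dividing cell cannot be told apart. The genes were chosen with earlier results of these data known, so that the counts are a description.

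**Figure D1:**
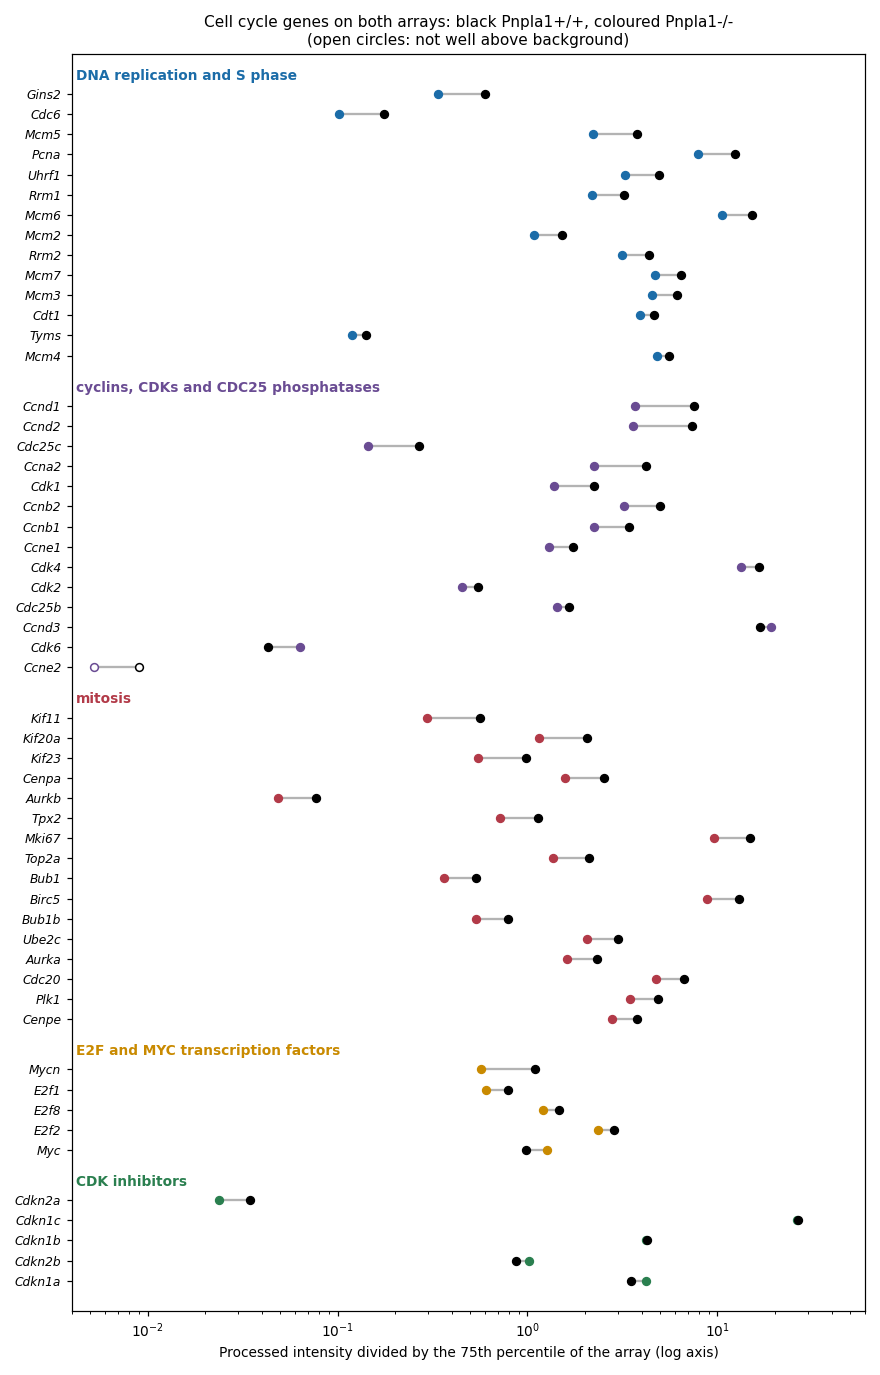
Scaled intensity (processed intensity divided by the 75th percentile of the array, log axis) of each of the 54 genes in *Pnpla1*+/+ (black) and *Pnpla1*-/- (coloured) skin, 1 array each, grouped by role and ordered by the difference. The coloured point lies to the left of the black point for 48 of 53 measured genes, and *Ccne2* (open circles) was below the limit of detection on both.

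The promoters of these genes are shown because many of the genes moved together. Late cell cycle genes are known for 2 short elements near the start of transcription, the CCAAT box and the cell cycle genes homology region (CHR), and replication genes for sites of the E2F factors. The 250 bases before the annotated start were read from RefSeq (GRCm38.p6) for 42 of the 54 genes, using the start listed first for a gene, and were searched on both strands for TTTCCCGC, TTTCGCGC, TTTGCCGC or TTTGGCGC (E2F), for TTTGAA or TTCGAA (CHR) and for CCAAT. TTTCGCGC and TTTGGCGC can overlap a match on the other strand, as can CCAAT, and TTCGAA reads the same on both strands. Among 13 mitosis genes with a promoter in the table, 12 (92.3%) held CCAAT and 6 (46.2%) held the CHR letters, against 34.5% and 17.4% of all 27025 promoters. Among 12 replication genes, 4 (33.3%) held the E2F letters, against 1.91% of all promoters, and 9 held CCAAT. The E2F letters were in 15% of the promoters of 40 other replication genes and in 38.9% of those of 18 other inhibitors, pocket proteins and E2F factors. CCAAT was in 59.7% of the promoters of 72 other mitosis genes, 53.3% of those of 15 p53 target genes and 17.6% of those of 17 MYC target genes. The CHR letters were in 33.3%, 20% and 5.88% of the same 3 lists. CCAAT and CHR together were in 46.2% of the promoters of the 13 mitosis genes, 25% of those of other mitosis genes, 6.67% of those of p53 target genes and none of those of MYC target genes or CDK inhibitors, against 6.21% of all promoters. Among 4 CDK inhibitors, *Cdkn2a* held the E2F letters, *Cdkn2b* those of CHR and *Cdkn1b* CCAAT, and none held more than 1 of the motifs. A match is a description of the letters in this window, and binding was not measured. The 5 promoters that follow are printed 5′ to 3′ on the strand of the gene and end at the base before the start, with every match in capitals. They were picked, with their values known, to show a replication gene (*Mcm6*), a gene with all 3 motifs (*Cdk1*) and a pair of mitosis genes rich in CCAAT (*Top2a* and *Ube2c*). The last is an inhibitor with no match in the window of its first listed start (*Cdkn1a*). Any other start of a gene was not used.
*Mcm6*, chr1:128359706-128359955, minus strand: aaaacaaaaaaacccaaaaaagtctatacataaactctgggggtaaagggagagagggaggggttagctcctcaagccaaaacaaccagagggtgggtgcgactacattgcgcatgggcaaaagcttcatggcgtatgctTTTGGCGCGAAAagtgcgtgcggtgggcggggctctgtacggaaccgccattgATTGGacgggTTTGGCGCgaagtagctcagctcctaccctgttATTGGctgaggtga
*Cdk1*, chr10:69352913-69353162, minus strand: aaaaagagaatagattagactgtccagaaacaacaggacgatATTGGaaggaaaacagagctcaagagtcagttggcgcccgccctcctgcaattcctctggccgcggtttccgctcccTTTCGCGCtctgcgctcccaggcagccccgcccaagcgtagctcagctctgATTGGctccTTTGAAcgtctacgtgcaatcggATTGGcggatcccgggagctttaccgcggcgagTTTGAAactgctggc
*Top2a*, chr11:99024190-99024439, minus strand: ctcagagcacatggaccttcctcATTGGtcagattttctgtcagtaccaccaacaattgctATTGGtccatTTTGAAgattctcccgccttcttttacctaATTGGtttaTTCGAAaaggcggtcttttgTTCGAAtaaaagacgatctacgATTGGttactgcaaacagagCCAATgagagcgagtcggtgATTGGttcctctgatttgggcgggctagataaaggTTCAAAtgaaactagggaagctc
*Ube2c*, chr2:164769679-164769928, plus strand: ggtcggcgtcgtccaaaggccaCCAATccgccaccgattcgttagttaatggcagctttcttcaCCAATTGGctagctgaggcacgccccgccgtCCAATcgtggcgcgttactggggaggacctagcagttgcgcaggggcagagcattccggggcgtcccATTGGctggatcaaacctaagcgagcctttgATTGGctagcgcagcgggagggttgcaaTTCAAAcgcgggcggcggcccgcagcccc
*Cdkn1a*, chr17:29090729-29090978, plus strand: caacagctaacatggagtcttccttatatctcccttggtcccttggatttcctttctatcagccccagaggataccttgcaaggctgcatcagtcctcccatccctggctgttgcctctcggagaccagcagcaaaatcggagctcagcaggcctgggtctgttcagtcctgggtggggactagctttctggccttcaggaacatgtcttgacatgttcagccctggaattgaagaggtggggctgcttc
In *Mcm6*, the E2F matches ended 103, 99 and 40 bases before the start (the last base printed is base 1), and the first pair overlap on opposite strands. In *Cdk1* the CHR matches ended 66 and 10 bases before the start, next to CCAAT at 76 and 44, with E2F at 124. *Top2a* held 6 CCAAT and 4 CHR matches, and *Ube2c* 6 CCAAT and 1 CHR match.

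All 14 genes of DNA replication and S phase were lower in *Pnpla1*-/- skin, with a median of −0.49 (71.0% of wild type), and 5 were lower by at least 1.5-fold. The range was narrow, from −0.82 for *Gins2* to −0.21 for *Mcm4*. *Gins2*, a subunit of the replicative helicase complex, was at 0.595 in wild-type and 0.338 in knockout skin. *Cdc6*, which loads the MCM helicase onto origins, was at 0.176 and 0.102, a difference of −0.79, and a dimmer probe of the gene gave −0.62. With normexp background correction *Cdc6* was at −0.57, short of 1.5-fold. *Mcm5* was at 3.75 and 2.22, a difference of −0.76. These 3 genes had the largest differences of the role and were each at 56.8% to 59.2% of wild type.

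*Pcna*, the sliding clamp of the DNA polymerases, was at 12.3 in *Pnpla1*+/+ and 7.93 in *Pnpla1*-/- skin, a difference of −0.64. *Uhrf1*, which maintains DNA methylation behind the fork, was at 4.92 and 3.24, a difference of −0.60, and its dimmer probe gave −0.30. Both lay past 1.5-fold, and the remaining 9 genes of the role did not. The 6 subunits of the MCM helicase, *Mcm2* to *Mcm7*, ran from −0.76 to −0.21 with a median of −0.47, so the subunits of this complex were all lower but not by the same amount. *Mcm6* was at 15.2 and 10.6, a difference of −0.51. *Mcm3* had 2 probes, and both gave −0.43. Of the genes that supply nucleotides, the ribonucleotide reductase subunits *Rrm1* and *Rrm2* were at −0.55 and −0.47. *Tyms*, thymidylate synthase, was at 0.140 and 0.120, a difference of −0.23 that was −0.14 with normexp background correction. The smallest differences of the role were thus those of *Mcm4*, *Tyms* and the licensing factor *Cdt1* (−0.25), which still exceeded 2 times the technical SD.

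The mitosis genes spanned the narrowest range of the 5 roles. All 16 were lower, with a median of −0.59 (66.3% of wild type), a range from −0.93 to −0.45, and 8 of the 16 past 1.5-fold. *Mki67*, which encodes the proliferation marker Ki-67 and was read by a probe at chr7:142881591-142881650 of mm9, was at 14.8 in *Pnpla1*+/+ and 9.55 in *Pnpla1*-/- skin, a difference of −0.64. Its other probe gave −0.60. *Top2a*, the topoisomerase that untangles chromosomes before they part, was at 2.10 and 1.37, a difference of −0.62. Both markers of proliferation were thus at about the same share of wild type, 64.4% and 65.1%.

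The largest differences among mitosis genes were those of kinesins, the motors of the spindle. *Kif11*, which pushes the spindle poles apart, was at 0.563 in *Pnpla1*+/+ and 0.295 in *Pnpla1*-/- skin, a difference of −0.93. *Kif20a*, needed for cytokinesis, was at 2.07 and 1.15, a difference of −0.84. *Kif23*, a part of the centralspindlin complex, was at 0.977 and 0.550, a difference of −0.83. These 3 motors were at 52.4% to 56.3% of wild type, while the kinetochore kinesin *Cenpe*, at −0.45, had the smallest difference of the role. A dim second probe of *Kif23* gave −0.19, so the size of that difference depends on the probe. *Cenpa*, the histone variant that marks the centromere, was at 2.53 and 1.57, a difference of −0.69, and the spindle assembly factor *Tpx2* differed by −0.68.

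The mitotic kinases lay closer together. *Aurkb*, a kinase of the chromosomal passenger complex, was dim, at 0.0774 in *Pnpla1*+/+ and 0.0484 in *Pnpla1*-/- skin, a difference of −0.68 that was −0.38 with normexp background correction. *Aurka*, the kinase of the spindle poles, was at 2.34 and 1.61, a difference of −0.53. *Plk1*, which acts at entry into and exit from mitosis, was at 4.85 and 3.46, a difference of −0.49. *Bub1* and *Bub1b*, of the checkpoint that holds back chromosome separation, differed by −0.57 and −0.55, and *Cdc20*, the target of that checkpoint, was at 6.69 and 4.75, a difference of −0.49. The remaining mitosis genes, *Birc5* (survivin) and *Ube2c*, the ubiquitin-conjugating enzyme of the anaphase-promoting complex, differed by −0.55 each. *Bub1* was printed in 10 spots on each array, whose processed intensities before scaling ran from 1077 to 1210 with a median of 1127 in *Pnpla1*+/+ skin and from 592 to 672 with a median of 627 in *Pnpla1*-/- skin. The spots of the 2 arrays did not overlap. They are repeated measurements of the same 2 RNA pools and not replicates of the genotypes.

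**Figure D2:**
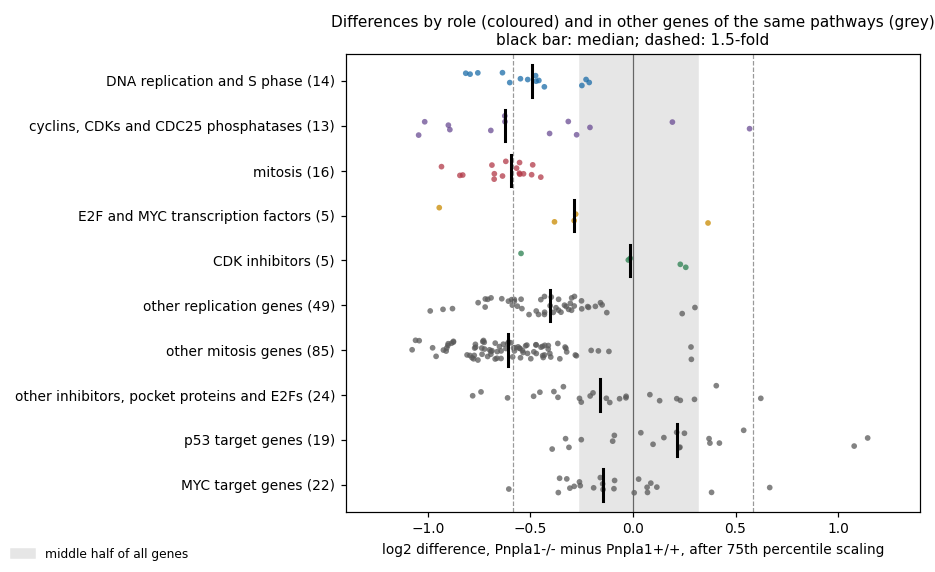
Log2 difference of each measured gene (points) in *Pnpla1*-/- against *Pnpla1*+/+ skin by role, with the number of genes in brackets and the median as a black bar, and in grey other genes of the same pathways. The grey band is the interquartile range of all genes, from −0.26 to 0.32, and the replication and mitosis medians (−0.49 and −0.59) lie to its left while that of the CDK inhibitors (−0.01) lies within it.

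The cyclins and their partners were less uniform. Of 13 measured genes, 11 were lower, 7 of them by at least 1.5-fold, and 2 were higher, with a median of −0.62 (64.9% of wild type). The largest differences of all 53 genes were those of the D-type cyclins that carry growth signals to the cycle. *Ccnd1* (cyclin D1), read by a probe at chr7:152116202-152116261 of mm9, was at 7.56 in *Pnpla1*+/+ and 3.66 in *Pnpla1*-/- skin, a difference of −1.04. *Ccnd2* (cyclin D2), at chr6:127098696-127098755, was at 7.31 and 3.62, a difference of −1.02. The third D-type cyclin did not share this pattern. *Ccnd3*, at chr17:47736579-47736638, was at 16.8 and 19.2, a difference of 0.19, and its other probe gave 0.20, although it was at 0.02 with quantile normalization, −0.09 with no scaling and −0.23 with spike-in centring.

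The kinases that pair with D-type cyclins also went different ways. *Cdk4* was at 16.7 in *Pnpla1*+/+ and 13.4 in *Pnpla1*-/- skin, a difference of −0.32, and its 2 other probes gave −0.46 each. *Cdk6* was dim, at 0.0428 and 0.0635, and its difference of 0.57 was the highest of the 53 genes, just short of 1.5-fold. *Cdk2* and its partner *Ccne1* (cyclin E1), which act at the entry into S phase, differed by −0.27 (−0.18 with cyclic loess) and −0.41. *Cdk6* was thus the only kinase of the list with a higher level in the knockout pool.

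The cyclins and the kinase of mitotic entry were lower together. *Ccna2* (cyclin A2) was at 4.19 in *Pnpla1*+/+ and 2.25 in *Pnpla1*-/- skin, a difference of −0.89. *Cdk1* was at 2.23 and 1.38, a difference of −0.69. *Ccnb1*, a B-type cyclin that activates *Cdk1*, was at 3.44 and 2.23, a difference of −0.62, and *Ccnb2*, the other B-type cyclin, also differed by −0.62. All 4 were past 1.5-fold by their brightest probe, but the other probes of *Ccnb1* gave −0.55 and −0.40. *Cdk1* was the gene whose probes differed most, since a dim probe gave 0.19 and a brighter one −0.64, and the mean of all 3 probes was −0.38. Of the phosphatases that activate *Cdk1*, *Cdc25c* was at 0.268 and 0.144, a difference of −0.90, while *Cdc25b* was at −0.21 (−0.14 with cyclic loess).

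Among the transcription factors, *Mycn* and *Myc* differed in opposite directions. *Mycn*, read by a probe at chr12:12943193-12943252, was at 1.101 in *Pnpla1*+/+ and 0.572 in *Pnpla1*-/- skin, a difference of −0.94. *Myc*, at chr15:61821417-61821476, was at 0.980 and 1.26, a difference of 0.37, which was −0.06 with spike-in centring. The E2F factors had smaller differences than most of the replication genes. *E2f1*, an activator, was at 0.791 and 0.606, a difference of −0.38. *E2f2*, another activator, was at 2.86 and 2.35, a difference of −0.28. *E2f8*, an atypical family member that represses, was at 1.47 and 1.21, a difference of −0.29.

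The 5 CDK inhibitors had a median of −0.01, or 99.1% of wild type, and ranged from −0.55 to 0.26. None of them was past 1.5-fold in either direction, which 23.2% of all genes were, so that a count of 0 among 5 genes says little. *Cdkn1c* (p57) was at 26.6 in *Pnpla1*+/+ and 26.2 in *Pnpla1*-/- skin, a difference of −0.02 that was −0.24 with quantile normalization. *Cdkn1b* (p27) was at 4.24 and 4.202, a difference of −0.01, which took the other sign, at 0.01, with cyclic loess and with the mean of all probes. As reported, both differences were within the technical SD. *Cdkn1a* (p21), a target of p53, was at 3.51 and 4.19, a difference of 0.26 that was −0.02 with no scaling and −0.17 with spike-in centring. It was printed in 10 spots, whose processed intensities before scaling ran from 7070 to 7747 with a median of 7399 in *Pnpla1*+/+ skin and from 6887 to 7661 with a median of 7256 in *Pnpla1*-/- skin. These spots overlapped before scaling, so that the higher value of this probe rests on the scaling of the arrays. The 2 dimmer probes of *Cdkn1a* gave 0.58 and 0.81.

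The Ink4 inhibitors, which block CDK4 and CDK6, were *Cdkn2a* and *Cdkn2b*. *Cdkn2b* (p15) was at 0.867 in *Pnpla1*+/+ and 1.02 in *Pnpla1*-/- skin, a difference of 0.23, and its dimmer probe gave 0.11, while no scaling and spike-in centring gave −0.05 and −0.20. *Cdkn2a*, which encodes p16 and p19ARF, was dim, at 0.0348 and 0.0238, a difference of −0.55 that shrank to −0.08 with normexp background correction, and its other probe was below background on both arrays. The probe does not tell the transcripts of *Cdkn2a* apart, as the scanner file lists both for it.

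**Figure D3:**
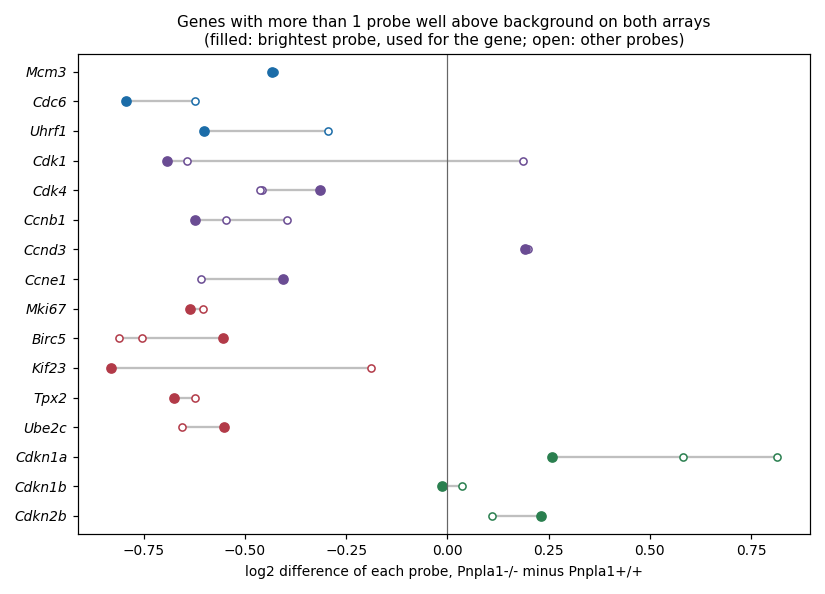
Log2 difference of each probe well above background on both arrays, for the 16 genes with more than 1 such probe (filled, the brightest probe, used for the gene; open, the others). Probes of 11 genes were all below 0, the median range within a gene was 0.16, and the widest range, 0.88, was that of *Cdk1*.

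Where a gene had several probes, most differed in the same direction. Of the 16 genes with more than 1 probe well above background on both arrays, 11 had every probe below 0, 2 (*Cdk1* and *Cdkn1b*) had probes of both signs, and the median range within a gene was 0.16, against 0.18 over all 5096 such genes. The 3 genes with every probe above 0 were *Ccnd3*, *Cdkn1a* and *Cdkn2b*. With the mean of all probes, *Uhrf1* (−0.45), *Cdk1* (−0.38), *Ccnb1* (−0.52) and *Kif23* (−0.51) were no longer past 1.5-fold, while *Birc5* (−0.71) and *Ube2c* (−0.60) were.

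Other genes of the same pathways, which are not among the 54, were also lower for replication and mitosis. Of 134 such genes, all measured, 130 were below 0 and 58 (43.3%) were lower by at least 1.5-fold, against 9.34% of all genes, and none was higher by 1.5-fold. The 49 other replication genes had a median of −0.40, with 12 past 1.5-fold. *Pole2*, a subunit of DNA polymerase epsilon, differed by −0.99, *Dut*, the dUTPase, by −0.93 and *Dscc1*, of the clamp loader for sister chromatid cohesion, by −0.88. *Cdc7*, the kinase that fires origins, and *Orc5*, of the origin recognition complex, were at 0.30 and 0.24 and were the only genes of this list above 0. Before scaling, the dim *Cdc7* was at 61.5 in *Pnpla1*+/+ and 62.3 in *Pnpla1*-/- skin and *Orc5* at 173 and 168. The 85 other mitosis genes had a median of −0.61, with 46 past 1.5-fold, and the largest differences were those of the centromere gene *Cenpm* (−1.08), *Fam64a* (−1.06) and the checkpoint kinase *Ttk* (−1.04), each past 2-fold. *Foxm1* and *Mybl2*, transcription factors that turn on mitosis genes, were at −0.73 and −0.55. *Psrc1* and *Pttg1* (securin), both at 0.28, were the only genes of this list above 0, and the other probe of *Pttg1* gave 0.08. Before scaling, *Psrc1* was at 1076 in *Pnpla1*+/+ and 1078 in *Pnpla1*-/- skin and *Pttg1* at 9497 and 9503. Their higher values thus rest on the scaling of the arrays.

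The 3 other pathway lists had medians nearer to 0. Over all genes, 9.34% were lower and 13.8% higher by at least 1.5-fold, and 6.69% were higher by at least 2-fold. Against those shares, the few genes counted here say little about the lists. Of 24 other inhibitors, pocket proteins, E2F factors and checkpoint genes, 3 were lower by at least 1.5-fold, *Wee1* (−0.78), the Ink4 inhibitor *Cdkn2c* (−0.74) and *Skp2* (−0.61), and 1 was higher, the atypical E2F gene *E2f7* (0.62, with 0.09 from its other probe), with a median of −0.16. *Lin54* and *Chek1* were at 0.41 and 0.30, and *Chek1* was dim, at 58.1 in *Pnpla1*+/+ and 58.9 in *Pnpla1*-/- skin before scaling. Of 20 p53 target genes, 19 were measured, with a median of 0.21 that was −0.07 with no scaling and −0.21 with spike-in centring. Of these, *Pmaip1* (1.14), a BH3-only gene of apoptosis also known as Noxa, and the death receptor gene *Fas* (1.08) were more than 2-fold higher, while the death receptor gene *Tnfrsf10b* was at 0.54, *Mdm2* at 0.23, *Trp53inp1*, *Ei24* and *Ccng1* at −0.39, −0.33 and −0.31, and *Eda2r* was not well above background. Of 22 MYC target genes, *Ddx21* (0.67, with −0.16 from its other probe) was higher by at least 1.5-fold. *Pes1* (−0.61, with −0.25 from its other probe) was lower by at least 1.5-fold, and the median was −0.15. *Ldha* and *Fbl* were at 0.38 and 0.12, and *Rrp9* and *Nop58* at −0.36 each.

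**Figure D4:**
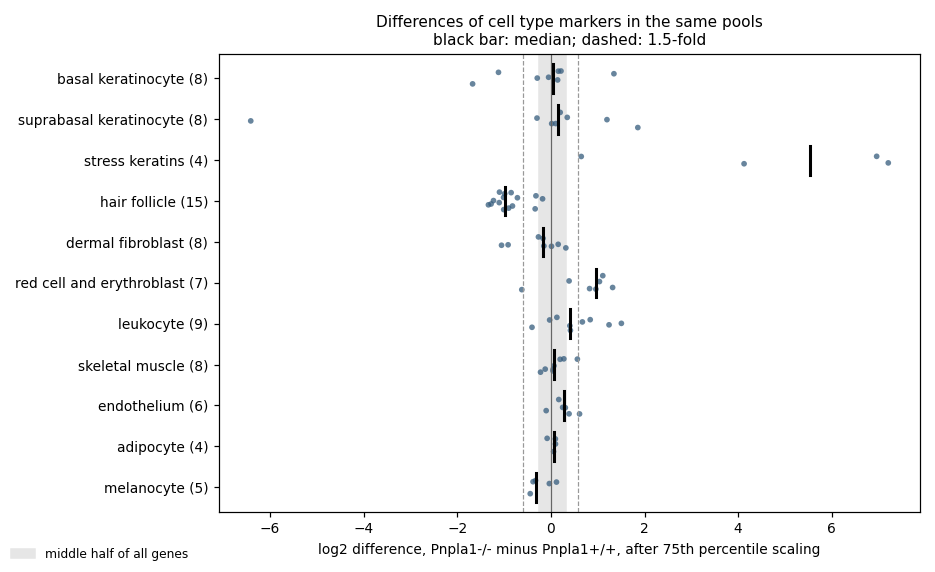
Log2 difference of marker genes of cell types that skin can hold (points), with the number of measured genes in brackets and the median as a black bar. All 15 hair follicle markers were below 0 (median −0.99), the stress keratin genes were higher (median 5.54), and the basal keratinocyte markers had a median of 0.05. Of all genes, 49.8% were below 0.

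Markers of some cell types differed between the same pools. Of all genes, 49.8% were below 0, and 9.34% were lower and 13.8% higher by at least 1.5-fold. All 15 hair follicle markers were well above background and below 0, 12 of them lower by at least 1.5-fold, with a median of −0.99 and summed scaled intensities of 114 in wild-type and 59.9 in knockout skin. The brightest of them, *Krt71*, differed by −0.82, *Krt35*, *Lhx2* and *Krt28* had the largest differences (−1.33, −1.28 and −1.23), and *Shh* and *Lef1*, genes of the follicle's growing cells, were at −1.10 and −1.01. The growing follicle holds dividing matrix cells, and the part of the follicle in the lower cell cycle values was not tested. Markers of basal keratinocytes had a median of 0.05 and a summed scaled intensity of 208 and 235, with 2 of 8 lower by at least 1.5-fold (*Krt15*, −1.67, and *Dst*, −1.12, although the other probes of *Dst* gave −0.20 and 0.19) and 1 higher (*Krt14*, 1.35), while *Krt5*, the brightest, was at 0.22. Over the settings tried this median ran from −0.38 to 0.05. The 8 suprabasal markers had a median of 0.15, which ran from −0.27 to 0.18 over the settings, with sums of 390.2 and 395. *Krt10*, the brightest, was at 0.20, *Tgm1* and *Dsc1* were at 1.86 and 1.20, and *Flg2* was at −6.41.

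The stress keratin genes, which are known to come on in injured and hyperproliferative epidermis, moved the other way from the cell cycle genes. *Krt6a* was at 0.199 in *Pnpla1*+/+ and 24.7 in *Pnpla1*-/- skin, a difference of 6.96. *Krt6b*, at 7.20, and *Krt16*, at 4.13, were also higher, and *Krt17*, the brightest of the 4 in wild-type skin, was at 0.65. The summed scaled intensity of the 4 genes was 45.5 in *Pnpla1*+/+ and 411 in *Pnpla1*-/- skin.

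Several markers of blood cells were higher in the knockout pool, where 13.8% of all genes were at least 1.5-fold higher. Of 9 red cell and erythroblast markers, 7 gave a difference, 5 of them at least 1.5-fold higher, with a median of 0.96 and sums of 73.9 and 141, of which *Hba-a1* was the brightest (0.83). *Alas2*, *Slc4a1* and *Hbb-b1* were at 1.32, 1.11 and 1.04. *Klf1* and *Epb4.2* were not well above background. Of 12 leukocyte markers, 9 gave a difference and 4 were at least 1.5-fold higher, with a median of 0.42 that was −0.01 with spike-in centring, and sums of 15.8 and 22.5. *Csf1r*, the brightest of these, was at 0.67 and the pan-leukocyte gene *Ptprc* at 1.51, *Adgre1* and *Cd68*, of macrophages, were at 1.24 and 0.84, *Cd3g* of T cells was at −0.40 and *Itgam* at −0.03 (its other probes gave 1.14 and 2.84), *Cd207* and *Ms4a1* were not well above background, and *Trac* had no probe. The part of red cells or leukocytes in the cell cycle values was not tested.

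The other cell types had medians from −0.33 to 0.28. The genes past 1.5-fold named here stand against 9.34% of all genes lower and 13.8% higher. The 8 dermal fibroblast markers had a median of −0.16 and sums of 351 and 328, with *Col1a2* the brightest (−0.17) and *Twist2* and *Dpt* lower by at least 1.5-fold (−1.05 and −0.91). The 8 skeletal muscle markers had a median of 0.06, which was −0.22 with no scaling, and sums of 219 and 252, with *Myh8* the brightest (0.28). The 6 endothelial markers had a median of 0.28, which was 0.00 or below with no scaling and −0.15 with spike-in centring, and sums of 7.47 and 8.38, with *Cldn5* the brightest (−0.10) and *Emcn* higher by at least 1.5-fold (0.61). Of 5 adipocyte markers, 4 gave a difference and *Lep* was not above background, with a median of 0.08 that was −0.21 with no scaling, sums of 62.1 and 65.9 and *Fabp4* the brightest (0.10). The 5 melanocyte markers had a median of −0.33 and sums of 29.6 and 23.5, with *Dct* the brightest (−0.38). The part of these cell types in the cell cycle values was not tested.

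**Figure D5:**
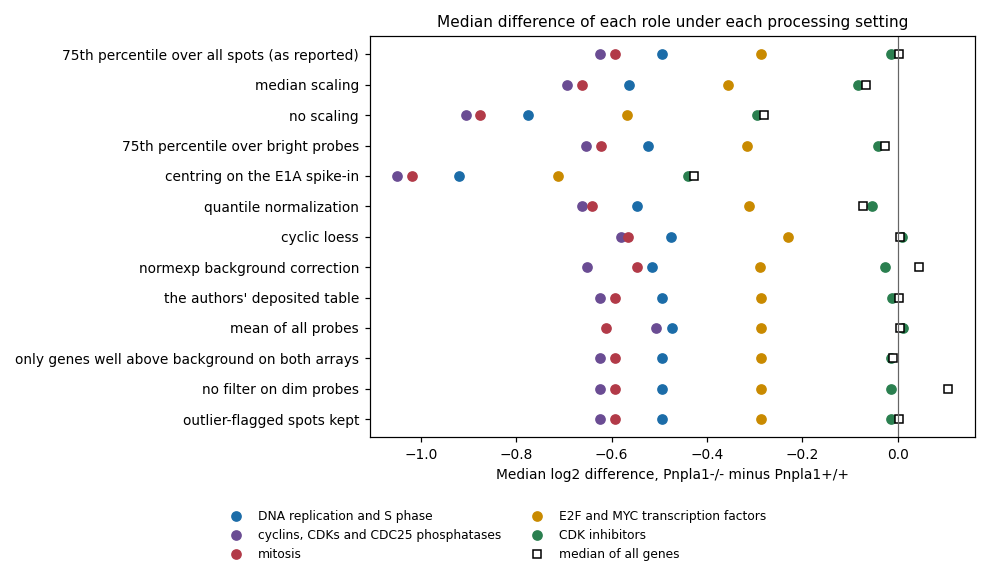
Median log2 difference of each role (coloured points) and of all genes (open squares) under the reported setting and 12 others. The medians of replication, cyclins and CDKs, and mitosis stay below −0.47 throughout, and with no scaling or spike-in centring all medians shift together with that of all genes.

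The median over all members was below 0 under every setting tried. It ran from −0.97 to −0.49, and 47 of the 48 lower genes stayed below 0 in every setting, the exception being *Cdkn1b*. Of the 5 higher genes, *Cdk6* stayed above 0 in every setting. Relative to the median of all genes, the members' median was −0.55 as reported, −0.50 with quantile normalization, −0.49 with cyclic loess and −0.65 with no filter on dim probes.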

How the data were processed

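Per the file headers and labels, the authors scanned 1-colour (Cy3) Agilent 4x44K v2 mouse arrays and extracted them with Feature Extraction 11.5.1.1. The authors deposited for each spot the processed intensity, background-subtracted and detrended but not scaled between arrays, with its mean and local background intensity and flags, and probe coordinates on mm9. They also deposited a table holding each intensity as a ratio to a single factor, 2109 on the wild-type and 1734 on the knockout array. The paper's text names global normalization without the statistic.

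Spots other than controls (43020 per array, 71.7% well above background in *Pnpla1*+/+ and 73.3% in *Pnpla1*-/-, none saturated) were divided by the array's 75th percentile and taken to log2 (Python 3.11.15, pandas 2.3.3, numpy 2.4.6). Outlier-flagged spots were left out (138 and 82, none of a cell cycle gene). Repeated spots were averaged. A gene, named as in the scanner files, was its brightest probe, taking probes well above background on both arrays first. A gene above background on 1 array has a bound, against the higher of its own dim signal and the lowest signal above background. The number of arrays limits the precision. Thresholds were 1.5-fold and 2-fold.

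The members, lists and alternatives were chosen with earlier results of these data known. Genes given are all inhibitors and E2F and MYC factors, main markers, the largest differences of each role, and up to 3 largest in each direction of each other list; further genes were added after their values were seen. The value of 1 marker gene is not reported here. Alternatives were other scalings, quantile normalization, cyclic loess and normexp (offset 50) in limma 3.58.1 under R 4.3.3, the deposited ratios, other probe rules and filters, and a 3-fold threshold. The computation was tested on simulated data.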

Additional observations from a re-analysis of the deposited data

How the results depend on the processing

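Centring on the 8 E1A spike-in probes, which were 0.43 higher on the *Pnpla1*-/- array (from 0.30 to 0.49), moved the all-gene median by −0.43, and leaving the arrays unscaled moved it by −0.28. By construction every gene moves with that shift. With spike-in centring the medians were −0.97 for all members, −0.92 for replication, −1.05 for cyclins and CDKs, −1.02 for mitosis, −0.71 for E2F and MYC factors and −0.44 for CDK inhibitors, with 46 genes at least 1.5-fold and 21 at least 2-fold lower, while 33.7% of all genes were 1.5-fold lower. With no scaling the same values were −0.83, −0.78, −0.91, −0.88, −0.57 and −0.30, then 39, 11 and 21.5%. The share of higher genes among all those changed 2-fold was 68.7% as reported, 27.8% with spike-in centring, 41.2% with no scaling and 58.8% with quantile normalization. Which scaling is nearest to RNA content was not tested. Median scaling gave 4 genes at least 2-fold lower, and a threshold of 3-fold gave 0. Genes at least 1.5-fold lower numbered 28 with median scaling and 25 with quantile normalization, against 11.2% and 11.7% of all genes. They numbered 19 with cyclic loess (9.53% of all genes), 19 with the mean of all probes (9.04%) and 18 with normexp background correction (5.49%). The mean of all probes moved the median of cyclins and CDKs to −0.51, which is then the value of *Ccne1*. Of the role medians, that of the CDK inhibitors changed sign, to 0.01 with cyclic loess and with the mean of all probes. Of the other lists, the medians that changed sign were those of p53 targets (−0.0688 with no scaling, −0.21 with spike-in centring), endothelium (−0.00173 and −0.15) and leukocytes (−0.00856 with spike-in centring), and those of basal (to −0.38), suprabasal (to −0.27), muscle (to −0.37) and adipocyte (to −0.35) markers, which lay within 0.16 of 0 as reported and were below 0 with no scaling, spike-in centring and quantile normalization. The other alternatives moved no role median by more than the technical SD. Dim genes (*Ccne2*, *Cdkn2a*, *Cdk6*, *Aurkb*) are limited by their signal over background. No paired analysis was possible because each genotype has 1 array, and for the same reason no slide term was fitted and no replicate was left out.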
